A study of Mus musculus with 4 samples.

Results

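Alveolar macrophage rich spots were the spots of a Visium slide in which the largest share of the captured RNA came from Marco, Mrc1, Chil3 and Ear2, 4 genes that mark the resident macrophages of the airspaces. Among spots with at least 2000 UMIs (unique molecular identifiers, each standing for a captured RNA molecule), the summed UMIs of the 4 genes were divided by the total UMIs of the spot, and the highest 10% of spots within each section were taken. These macrophage-rich spots, drawn as member spots in the plots, numbered 464 of 4632 spots with at least 2000 UMIs and of 4933 deposited spots. Throughout, values for the 4 sections stand in the order NV male, NV female, V male and V female, and the macrophage-rich spots numbered 78, 44, 149 and 193 in that order. Levels are given in CPM, the UMIs of a gene scaled to a total of 1000000 UMIs. The 4 genes chose the spots, so their own levels in these spots are a description and carry no test.

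The series set lung cryosections of Vaped (V) mice beside those of Non-Vaped (NV) mice, with 1 male and 1 female in each group and 1 section from each mouse. All mice were C57BL/6J, bought at 4 weeks of age. V mice were exposed in whole-body chambers to the aerosol of a Peach Ice vape juice from JUUL pens for 4 hours a day, 5 days a week, over 9 weeks, and NV mice were the unexposed controls. The tissue was labelled as the upper branches of the lung, and a Visium spot is wide enough to hold several cells of different kinds, so every value below belongs to a small region and not to a single cell. Each group holds 2 sections, and p-values between V and NV rest on the spread of levels or contrasts between sections of the same group. Those for macrophage-rich against other spots rest on how much that contrast varied over the 4 sections. In each fit the estimate of spread drew on all genes.

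Alveolar macrophages are long-lived phagocytes that sit on the surface of the alveoli. They take up inhaled particles and spent surfactant, and they depend on GM-CSF from the epithelium, which acts through its receptor (Csf2ra, Csf2rb) and the nuclear receptor Pparg. In the mouse they are told from other lung macrophages by Siglecf and Itgax, whereas the interstitial macrophages of the airway and vessel walls carry complement C1q genes, Cx3cr1, Folr2 and Lyve1. Marco is a scavenger receptor for bacteria and particles, and Mrc1 is the mannose receptor CD206. Chil3 encodes the chitinase-like protein Ym1, and Ear2 belongs to the eosinophil-associated ribonucleases.

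Sections held between 6957392 UMIs (NV female) and 34308556 UMIs (V female). The median macrophage-rich spot held 9927, 10796.5, 5572 and 7910 UMIs. The other spots held a median of 10186, 11133, 6619 and 13145 UMIs, so the chosen spots were the shallower ones in each section, with the widest gap in the V female. The number of score UMIs behind the choice was small, with a median of 7, 16, 9 and 13 UMIs per macrophage-rich spot against 2, 3, 3 and 6 per other spot. All 4 genes were seen together in 12.8%, 18.2%, 12.8% and 22.8% of the macrophage-rich spots. The spots therefore form the upper end of a continuous range, with the last spot inside and the first outside at 5.02 and 5, 8.13 and 7.99, 10.58 and 10.52, and 11.09 and 11.08 score UMIs per 10000 UMIs. The macrophage-rich spots held 33.7%, 37.6%, 34.8% and 21.2% of all score UMIs, so most UMIs of these genes lay outside them. Libraries shared between 277 and 1167 spot barcodes, which name positions on the slide and not cells.

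The V male section stood apart in the tissue it covered. Of its 1489 spots with at least 2000 UMIs, 1487 passed a parenchyma criterion set on alveolar and capillary genes (Calcrl, Cldn18, Hopx, Sftpb, Sftpc and Tmem100, with a summed share of at least 50% of that over the section), against 631 of 781, 333 of 436 and 1554 of 1926 in the other sections. Ttn, the giant sarcomere protein of striated muscle, was at 521, 489 and 414 CPM in the other spots of these 3 sections and at 1.22 in the V male. The comparisons of V with NV below therefore set a section of parenchyma alone beside sections that also held heart muscle, fat and large airways.

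Chil3 carried most of the score. Its level in the macrophage-rich spots was 553, 1164, 1819.6 and 1257 CPM, against 91.4, 138, 294 and 249 in the other spots, and it gave 63.6% to 78.8% of the score UMIs. Ear2 was at 127, 238, 224 and 247 CPM in the macrophage-rich spots and at 26.5, 32.4, 57.1 and 61.2 elsewhere. Mrc1 was at 131, 174, 146 and 103 CPM against 46.4, 56.0, 34.9 and 53.9. Marco, the scarcest of the 4, was at 58.1, 26.6, 119.5 and 74.4 CPM against 9.69, 9.59, 47.7 and 18.7. The gap between the 2 kinds of spots followed from the rule, but its width differed between genes, from 1.91-fold for Mrc1 in the V female to 8.45-fold for Chil3 in the NV female.

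**Figure D1:**
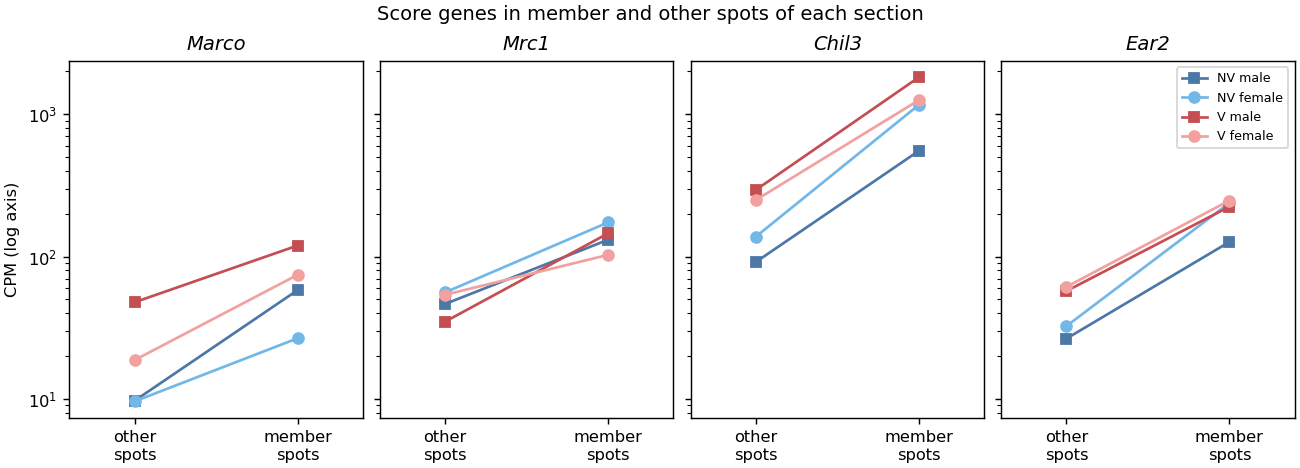
Levels of the 4 score genes (CPM, log axis) in the other spots and in the macrophage-rich (member) spots of each section, with a line joining the values of a section. Every line rises because these genes chose the spots, and Chil3 reaches 1819.6 CPM in the V male, the highest level among the 4 genes.

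Each score gene could be tested only where it took no part in the choice. When spots were ranked by the other 3 genes, Chil3 was at 339, 688, 1430 and 829 CPM in the macrophage-rich spots, against 116, 177, 357 and 279 elsewhere. This was a log2 fold change of 1.68 (SE 0.11, adjusted p = 4.31e-06, edgeR quasi-likelihood test over all genes with the section as a block). Ear2, left out in the same way, was higher by 1.71 on the log2 scale (SE 0.14, adjusted p = 6.32e-06, edgeR), at 92.0, 216, 183 and 200.3 against 30.4, 33.9, 61.1 and 64.2 CPM. Marco was higher by 1.23 (SE 0.19, adjusted p = 0.000747, edgeR), with folds of 3.86, 2.59, 1.42 and 3.44 in the 4 sections. Mrc1 had the smallest difference, 0.87 (SE 0.15, adjusted p = 0.00184, edgeR), with folds of 1.76, 1.95, 3.16 and 1.52. All 4 genes were thus higher, in each of the 4 sections, in spots chosen by the remaining 3. In sums over spots, a larger number of macrophages and more RNA per macrophage cannot be told apart. The call for Marco was lost without the V female section, where its log2 fold change was 0.98. With every spot thinned to 2000 UMIs before it was scored, the log2 fold changes were smaller, 0.93 for Chil3, 1.36 for Ear2, 0.78 for Marco and 0.64 for Mrc1, and all 4 were still called.

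Across the genes that took no part in the score, 172 of 12870 tested genes (1.34%) were higher in macrophage-rich spots than in the other spots of the same section, and 616 (4.79%) were lower, where a call asked for an adjusted p below 0.05 and a change of more than 0.25 on the log2 scale (edgeR, section as a block). Of the called genes, 170 were higher in all 4 sections, as were 17.4% of all genes tested, and 387 were lower in all 4, as were 6.73%. Of the 12 alveolar macrophage genes that were not used by the rule, 11 were called higher and none lower, with a median log2 fold change of 1.51 beside -0.0021 over all genes tested. The summed level of the 12 genes was 516 to 779 CPM in the macrophage-rich spots and 192 to 287 in the others, and the ranges did not overlap. Markers of the labelled cell type that had no part in the choice were thus higher in the chosen spots. The list of markers, like the rule, was chosen with earlier results of these data known, so it is not an independent check. Leaving out the NV male, NV female, V male or V female changed the number of higher genes to 105, 89, 296 or 64 and the number of lower genes to 355, 254, 1003 or 134.

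Siglecf, the sialic acid-binding lectin that defines alveolar macrophages in the mouse lung, had the highest fold change. It was at 18.6, 24.8, 14.0 and 32.4 CPM in the macrophage-rich spots, and at 2.72, 4.40, 4.86 and 6.40 elsewhere. No macrophage-rich value reached down to the range of the other spots, and the log2 fold change was 2.13 (SE 0.22, adjusted p = 5.20e-05, edgeR). These levels rested on few molecules, 16, 14, 15 and 64 UMIs in the 4 sums.

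Itgax, the CD11c integrin chain, was at 61.6, 71.0, 55.1 and 68.8 CPM in the macrophage-rich spots against 24.8, 16.8, 22.4 and 25.8 in the others, a log2 fold change of 1.35 (SE 0.13). Plet1, a GPI-anchored surface protein, was at 106, 137, 107 and 105 CPM against 30.7, 22.8, 32.7 and 38.2, a log2 fold change of 1.68 (SE 0.14). Krt79, a keratin found among mouse alveolar macrophage markers, was nearly level across the 4 sections, at 47.6, 51.5, 52.3 and 50.1 CPM in the macrophage-rich spots and 13.5, 11.3, 19.8 and 15.8 elsewhere. Each of these genes separated the 2 kinds of spots in every section, with adjusted p-values of 3.28e-05, 1.51e-05 and 1.84e-05 in the edgeR fit.

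The remaining genes of this list have roles in lipid handling, lysosomes and signalling. Fabp1, a fatty acid-binding protein, was at 16.3, 56.8, 40.1 and 34.9 CPM in the macrophage-rich spots against 5.79, 5.19, 12.2 and 11.2 elsewhere, a log2 fold change of 1.82 (SE 0.24). Abcg1, the exporter that moves cholesterol out of macrophages, was at 81.3, 158, 101 and 178 CPM against 40.9, 36.6, 44.5 and 51.3, a log2 fold change of 1.43 (SE 0.14). Atp6v0d2, a subunit of the proton pump that acidifies lysosomes, was at 41.8, 56.8, 68.2 and 77.4 CPM against 11.6, 11.01, 26.0 and 19.6, a log2 fold change of 1.73 (SE 0.14). Il18, Ctsk and Slc7a2, which encode an interleukin-1 family cytokine, the protease cathepsin K and an arginine transporter, had log2 fold changes of 1.39, 1.202 and 0.96 and were called higher. Fabp1 reached the widest fold in a single section, 10.9 in the NV female.

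Pparg was the exception among the 12. It was at 6.97, 12.4, 9.34 and 26.8 CPM in the macrophage-rich spots and at 8.86, 37.3, 3.74 and 42.0 in the others, so that it was higher there in the V male and lower in the remaining 3 sections. Its log2 fold change was -0.73 (SE 0.27, adjusted p = 0.158, edgeR), and within parenchyma spots it was 0.39 (adjusted p = 0.675). Fat cells also express Pparg, and the adipocyte hormone Adipoq moved with it, at 97.7, 752, 1.403 and 459 CPM in the other spots. The part of adipocyte RNA in the Pparg values was not tested.

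**Figure D2:**
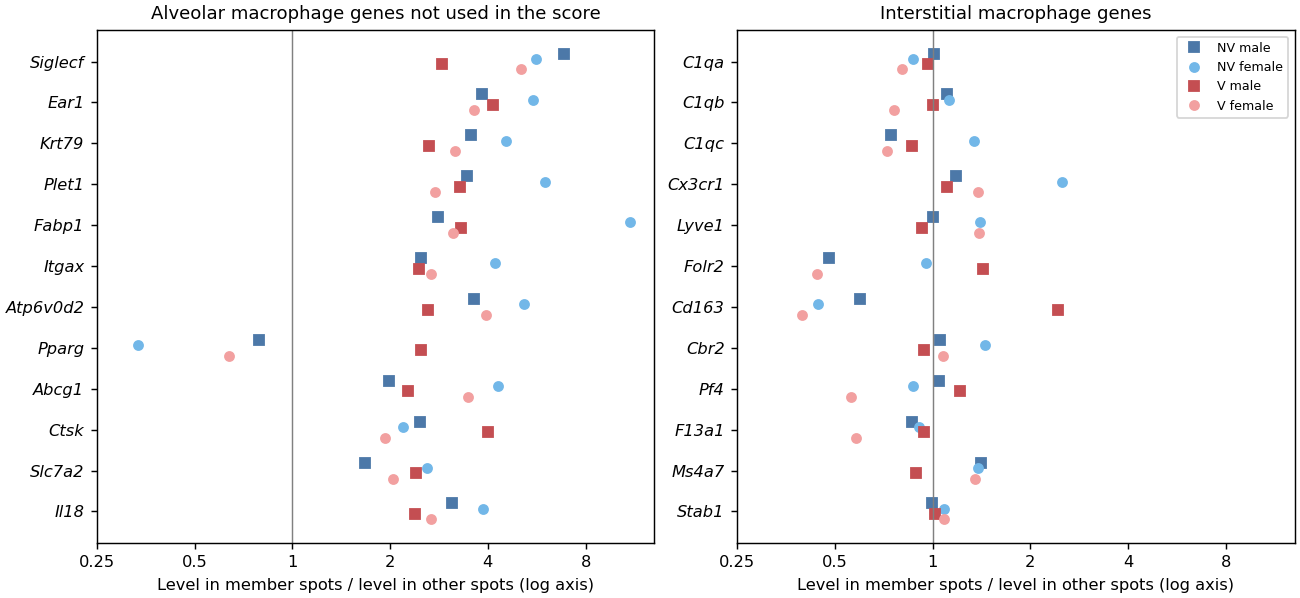
Level in macrophage-rich (member) spots divided by the level in the other spots of the same section (log axis, 1 point for each section) for 12 alveolar macrophage genes that were not used to choose the spots and for 12 interstitial macrophage genes. The alveolar macrophage genes other than Pparg lie above 1 in all 4 sections, from 1.67 for Slc7a2 in the NV male to 10.9 for Fabp1 in the NV female, whereas the interstitial macrophage genes lie on both sides of 1.

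Ear1 is a close paralog of Ear2, so its counts are uncertain. It was at 32.5, 74.5, 102 and 99.7 CPM in the macrophage-rich spots against 8.51, 13.5, 24.6 and 27.6 in the others, a log2 fold change of 1.90 (SE 0.13, adjusted p = 8.17e-06, edgeR). The 2 genes lie on chromosome 14 and resemble each other closely, so reads of Ear2, which chose the spots, could have been counted as Ear1. Their likeness extends to the 150 bases before the RefSeq start sites, shown here for that reason (RefSeq, GRCm38.p6; Ear2 at chr14:44102504-44102653 on the plus strand and Ear1 at chr14:43819640-43819789 on the minus strand, each 5′ to 3′). Shifted by 2 bases, 148 of 148 aligned bases were identical. Without Ear1, 10 of the 11 remaining alveolar macrophage genes were called higher.
Ear2: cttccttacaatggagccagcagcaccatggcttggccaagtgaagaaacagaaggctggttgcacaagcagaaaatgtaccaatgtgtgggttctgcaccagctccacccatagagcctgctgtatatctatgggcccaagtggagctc
Ear1: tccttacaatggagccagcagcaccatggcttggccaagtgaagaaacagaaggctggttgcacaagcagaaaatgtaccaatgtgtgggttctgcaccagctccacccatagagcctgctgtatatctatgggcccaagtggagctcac

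Beyond the lists, Olr1 and Fpr1 had the highest fold changes among called genes with at least 20 CPM in the macrophage-rich spots and the same direction in all 4 sections. Below that level, the integrin chain Itgad, which was named after its values were seen, was higher by 1.98 (SE 0.29) at 9.20 against 2.15 CPM. Olr1, the scavenger receptor LOX-1 for oxidised lipoprotein, was at 24.4, 28.4, 28.0 and 23.8 CPM in the macrophage-rich spots against 5.55, 5.50, 8.14 and 5.31 elsewhere, a log2 fold change of 1.97 (SE 0.18). Fpr1, a receptor for bacterial formyl peptides, was at 15.1, 26.6, 21.5 and 24.3 CPM against 2.72, 4.87, 6.73 and 5.90, a log2 fold change of 1.95 (SE 0.21). Neither gene overlapped between the 2 kinds of spots. Ms4a8a, a membrane protein of the MS4A family, and F7, which encodes coagulation factor VII, were each higher by 1.51 on the log2 scale (SE 0.17), F7 at 21.5 to 30.9 CPM against 6.76 to 9.42. All 10 genes with the largest increases by the naming rule were also called higher within parenchyma spots.

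General macrophage genes were higher by smaller amounts. Of 14 such genes, 10 were called higher and none lower, beside 1.34% and 4.79% of all genes tested. Their median log2 fold change was 0.59. Mpeg1, which encodes the pore-forming protein perforin-2, was at 211, 259, 227 and 231 CPM in the macrophage-rich spots against 109, 68.9, 95.0 and 85.3 in the others, a log2 fold change of 1.26 (SE 0.12). Ctss and Cd68, a lysosomal protease and a lysosomal membrane protein of phagocytes, were higher by 1.18 and 1.02. Lyz2, the lysozyme of myeloid cells and also of alveolar type II cells, was at 9584, 9348, 9959 and 8567 CPM against 7126, 5323, 9789 and 5261, a log2 fold change of 0.38 (adjusted p = 0.0308, edgeR) that was not called within parenchyma spots. Csf1r, the receptor for the macrophage growth factor CSF-1, had a log2 fold change of 0.14 (adjusted p = 0.508), and Mertk, Cd14 and Fcgr1 were likewise not called.

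The receptor for GM-CSF rose with the alveolar macrophage genes. Csf2rb, its signalling chain, was at 19.8, 55.0, 33.6 and 52.1 CPM in the macrophage-rich spots and at 18.2, 19.8, 19.1 and 18.9 elsewhere, a log2 fold change of 0.98 (SE 0.18, adjusted p = 0.00436, edgeR). The NV male value lay within the range of the other spots, and the remaining 3 sections lay above it. Csf2ra, the ligand-binding chain, was higher by 0.66 (adjusted p = 0.0108), and Spi1, which encodes the myeloid transcription factor PU.1, by 0.78 (adjusted p = 0.00685). Stat5a, a transcription factor downstream of the receptor, was lower by 0.78 on the log2 scale (adjusted p = 0.0135, edgeR), but its difference within parenchyma spots, -0.44, was not called. In all, 3 of 10 tested genes of the GM-CSF axis were higher and 1 lower, beside 1.34% and 4.79% of all genes tested. Csf2, the gene of GM-CSF itself, had 0, 0, 4 and 6 UMIs in the 4 macrophage-rich sums and was not tested.

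Interstitial macrophage genes did not follow. Of 12 such genes, none was called higher and 1, Folr2, was called lower, beside 1.34% and 4.79% of all genes tested. Their median log2 fold change was -0.23. C1qa, a complement component, was at 103, 162, 36.4 and 77.9 CPM in the macrophage-rich spots and at 102, 185, 37.6 and 97.1 in the others. Within sections it was lower in the macrophage-rich spots of the NV female, V male and V female and slightly higher in those of the NV male. Its log2 fold change was -0.29 (adjusted p = 0.173, edgeR). Folr2, a folate receptor of tissue macrophages, was at 12.8, 42.6, 0.93 and 9.61 CPM against 26.7, 44.7, 0.65 and 21.8, a log2 fold change of -0.88 (adjusted p = 0.0320), and within parenchyma spots it was -0.05 and not called. With Chil3 left out of the score, the log2 fold change of Folr2 turned to 0.83, so its direction depended on the choice of score genes. The summed level of 11 of these genes, with Cbr2 left out, is shown across the score in the plot by deciles. Cbr2 was left out after its values were seen, because this carbonyl reductase of airway and alveolar epithelium made up most of the sum, at 2201 to 3228 CPM. Of the sum that remained, Lyve1, which lymphatic vessels also carry, made up most in the macrophage-rich spots of the V male.

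**Figure D3:**
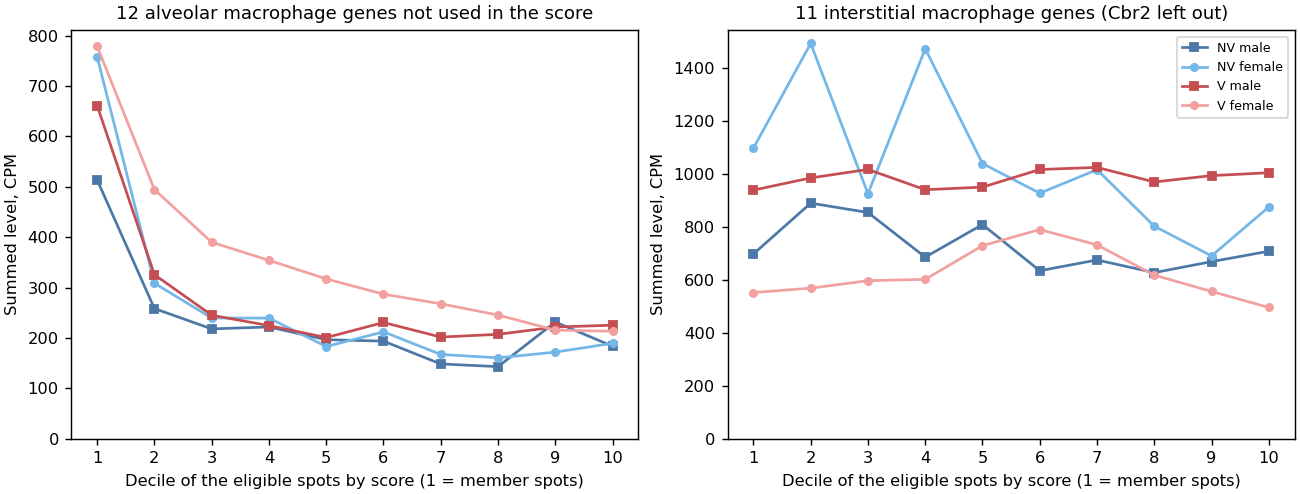
Summed level (CPM) of 12 alveolar macrophage genes that were not used in the score and of 11 interstitial macrophage genes, in deciles of the spots of each section ordered by score, with decile 1 the macrophage-rich spots (and 1 further spot in the NV male). The alveolar macrophage sum falls from 513, 758, 661 and 779 in the first decile to 258, 309, 326 and 494 in the second, and the interstitial sum shows no such drop.

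The alveolar macrophage sum fell from the first decile to the second in every section, and in all but the V female deciles 2 to 10 lay between 143 and 326 CPM. In the NV female it was 758 CPM in the first decile, 309 in the second and 239 in the third. In the V female it fell more slowly, from 779 to 494 and 390, and was still 213 in the last. The deciles differed in depth, and in the V female the median UMIs per spot were 7910 in the first decile and 25479.5 in the ninth. With spots thinned to 2000 UMIs before scoring, 129 genes were called higher and 532 lower.

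Of 15 inflammatory genes of macrophages, 9 were tested and 6 were left out by the filter on low counts. Il1rn, the antagonist of the interleukin-1 receptor, was at 12.8, 14.2, 20.5 and 16.2 CPM in the macrophage-rich spots against 4.25, 3.30, 5.24 and 5.16, a log2 fold change of 1.67 (SE 0.23, adjusted p = 0.000529, edgeR). Ccl6, a chemokine of myeloid cells, was at 349, 500.5, 493 and 372 CPM against 169, 180.4, 199 and 144, a log2 fold change of 1.19 (SE 0.10). These were the 2 called genes of 9 tested, beside 1.34% of all genes called higher, and neither overlapped between the kinds of spots. Il1b, the cytokine that Il1rn opposes, was at 24.4, 16.0, 9.34 and 5.57 CPM against 16.5, 5.82, 8.70 and 3.85, with a log2 fold change of 0.48 that was not called (adjusted p = 0.349).

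Lipid-handling genes gave calls in both directions, and lysosome and protease genes gave few. Over all genes tested, 1.34% were called higher and 4.79% lower. Of 18 lipid-handling genes, Gpnmb (0.71), Pla2g15 (0.63) and Lipa (0.43) were called higher on the log2 scale, and Lpl (-0.68) and Apoc1 (-0.79) lower, with a list median of 0.05. Gpnmb is a glycoprotein of lipid-laden macrophages, Pla2g15 the lysosomal phospholipase that breaks down surfactant lipid, and Lipa the lysosomal acid lipase. Lpl, the lipoprotein lipase, was at 350, 431, 293 and 427 CPM in the macrophage-rich spots against 470, 920.5, 241 and 843, and turned to a log2 fold change of 0.11 within parenchyma spots. Among 14 lysosome genes 1, Acp5, was called lower (-0.58) and none higher. Within parenchyma spots Acp5 turned to 0.21 and was not called, and Ctsd (0.46), Psap (0.37) and Ctsz (0.29) were called higher. None of 7 protease genes was called, and Mmp12, the macrophage elastase, was at 2.32, 1.77, 9.34 and 5.06 CPM in the macrophage-rich spots.

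Markers of other cell types showed which regions held fewer macrophage-rich spots. Over all genes tested, 4.79% were called lower. Of 8 heart muscle genes 7 were called lower, and their sum was 23.3 to 5335 CPM in the macrophage-rich spots against 28.6 to 12399 in the others. Among 6 tested adipocyte genes 5 were lower, and of 5 club cell genes 3, including Scgb1a1, the secretoglobin of club cells, which was at 9025, 1052, 239 and 9014 CPM against 12821, 2207, 261 and 11693. The 5 lowest genes by the naming rule included Lmod2 (-2.66) and Ttn (-1.99), both of the sarcomere, and all 5 had 0 UMIs in the macrophage-rich spots of the V male. Tmem182, Orm1 and Tmem45b had log2 fold changes of -2.05, -1.98 and -1.96. Alveolar type II, type I and capillary genes had list medians of 0.27, 0.18 and 0.20, with 0 of 9, 8 and 9 genes called. Within parenchyma spots these medians were -0.007, -0.058 and -0.030, again with none called. In the V male their summed levels were 0.89, 0.98 and 0.97-fold those of the other spots. Of 7 neutrophil genes 6 were tested and none was called, and their sum was 140 to 562 CPM in the macrophage-rich spots against 74.6 to 604.

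Limiting the comparison to parenchyma spots separated the 2 directions. With 63, 33, 149 and 155 macrophage-rich spots re-drawn among parenchyma spots, 173 of 11998 tested genes (1.44%) were higher and 37 (0.308%) lower (edgeR). Of the 169 higher genes that were tested in both, 140 were called again, with a median log2 fold change of 0.71 in place of 0.74. Of the 579 lower genes, 32 were called again, and their median went from -0.85 to -0.20. The share of calls that were higher was 21.8% over all spots and 82.4% within parenchyma. Among heart muscle genes 5 of 8 were still lower, at a list median of -0.33 in place of -1.62. The alveolar macrophage genes kept their count, 11 of 12, and their median of 1.51.

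**Figure D4:**
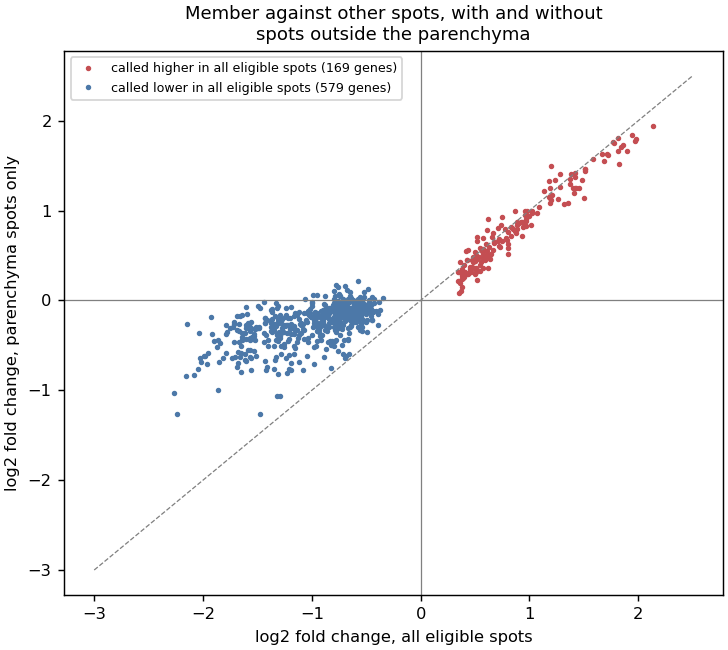
Log2 fold change of macrophage-rich (member) against other spots for genes called over all spots, with parenchyma spots alone on the vertical axis and all spots on the horizontal axis. The dashed line marks equal values. The 169 higher genes lie near it (medians 0.74 and 0.71), whereas the 579 lower genes lie close to 0 within parenchyma (medians -0.85 and -0.20).

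The promoters of the higher genes were searched for GAGGAA, the core of the site that PU.1 binds, on either strand of the RefSeq window from 250 bases before to 50 bases after the start. It was present in 59 of 126 higher genes with a window (46.8%), in 112 of 460 lower genes (24.3%), and in 28.3% of all 27025 windows. Among the alveolar macrophage genes not used in the score, 3 of 9 with a window held it (33.3%), close to the share of all windows. A 6-base match is a description of these letters and not evidence of binding. It was found in the windows of Marco, a score gene, and of Siglecf and Olr1, the 2 genes with the highest fold changes among called genes at 20 CPM or more, whose 150 bases before the start are given 5′ to 3′ with the match in capitals (RefSeq, GRCm38.p6). The match began 146 bases before the start in Marco (chr1:120505025-120505174, minus strand), 65 in Siglecf (chr7:43351191-43351340, plus strand) and 76 in Olr1 (chr6:129507166-129507315, minus strand). In Siglecf and Olr1 the letters are those of the opposite strand. The 150 bases of Mrc1, Fabp1, Ctsk and Fpr2 also held a match. Those of Chil3, Ear2, Ear1, Krt79, Plet1, Itgax, Pparg, Il18 and Fpr1 held no match.
Marco: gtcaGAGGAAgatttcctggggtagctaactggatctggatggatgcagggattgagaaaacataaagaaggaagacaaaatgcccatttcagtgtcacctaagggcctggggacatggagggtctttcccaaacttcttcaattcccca
Siglecf: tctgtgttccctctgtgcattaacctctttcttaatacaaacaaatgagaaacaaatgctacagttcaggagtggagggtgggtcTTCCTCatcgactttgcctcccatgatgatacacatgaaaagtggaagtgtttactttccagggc
Olr1: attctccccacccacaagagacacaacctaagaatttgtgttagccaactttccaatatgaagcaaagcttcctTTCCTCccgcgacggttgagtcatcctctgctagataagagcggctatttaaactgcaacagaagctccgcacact

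Whether the score genes differed between V and NV was asked over all spots with at least 2000 UMIs, where no spot was chosen by them. Marco was at 14.2 and 10.98 CPM in the NV male and female and at 54.2 and 21.9 in the V male and female. Both V values lay above both NV values, with means of 12.6 ± 2.25 (SD, n = 2) and 38.1 ± 22.8, and the log2 fold change of V over NV was 1.52 (SE 0.43). Its unadjusted p was 0.0217 and its adjusted p 0.99975 in the edgeR fit over all genes, so it did not pass.

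Chil3 was at 134 and 221 CPM in the NV sections and at 433 and 308 in the V sections, a log2 fold change of 1.02 (SE 0.34, unadjusted p = 0.0371, edgeR). Ear2 was at 35.7 and 49.1 against 72.3 and 71.97, a log2 fold change of 0.75 (SE 0.23, unadjusted p = 0.0300, edgeR). Mrc1 went the other way with overlapping values, at 54.3 and 65.6 against 45.0 and 56.7, a log2 fold change of -0.24 (SE 0.26). Of the 4 score genes, 3 thus had both V sections above both NV sections, and none was called. The same held for 7 of the 12 other alveolar macrophage genes, beside 12.4% of all 14558 genes tested, and for none in the opposite direction, beside 14.5%. Atp6v0d2 was among them, at 14.4 and 14.7 CPM in NV and 29.8 and 23.0 in V, a log2 fold change of 0.82 (SE 0.17, unadjusted p = 0.00743, edgeR). No gene was called in this comparison by edgeR (250 at an unadjusted p under 0.05), whereas a DESeq2 Wald test called 32. Within it, leaving out the V male gave 60 called genes and leaving out the V female gave 1172.

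Within the macrophage-rich spots, no alveolar macrophage gene passed the test between V and NV. Their median log2 fold change of V over NV was 0.12, beside 0.0097 over all genes, with 8 of 12 positive. Siglecf was at 18.6 and 24.8 CPM in NV and 14.0 and 32.4 in V, and Krt79 at 47.6 and 51.5 against 52.3 and 50.1, both with overlapping groups. For Krt79 the log2 fold change was 0.05 (SE 0.23). Ear1 and Atp6v0d2 were the 2 genes of the 12 with both V sections above both NV sections, beside 16.4% of all genes, at log2 fold changes of 0.97 (SE 0.34) and 0.59 (SE 0.24). Of the score genes, given as levels only, Marco and Chil3 had both V sections above both NV sections in these spots and Mrc1 and Ear2 overlapped.

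Most interstitial macrophage genes had lower values in the V sections within the same spots, and none passed the test. Of 11 tested, 8 had both V sections below both NV sections, beside 16.3% of all genes tested, with a list median of -1.15. The summed level of the 12 genes went the other way, at 3454 and 3298 CPM in NV and 4167 and 3708 in V, and without Cbr2, which made up most of it, the sum overlapped, at 697 and 1097 in NV against 938 and 552 in V over the first decile. C1qa was at 103 and 162 CPM in NV and at 36.4 and 77.9 in V, a log2 fold change of -1.15 (SE 0.39, unadjusted p = 0.0199, edgeR). Pf4, a chemokine stored in platelets and made by tissue macrophages, was at 82.5 and 76.3 against 23.3 and 41.5, a log2 fold change of -1.24 (SE 0.32). Lyve1, which lymphatic vessels also carry, was at 144 and 266 against 689 and 157, with overlapping groups. It thus made up most of the V male sum without Cbr2. Over all spots with at least 2000 UMIs, 9 of 12 likewise had both V sections below both NV sections, so the lower values were not particular to macrophage-rich spots.

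Retnla, which encodes the secreted protein RELMα of alternatively activated macrophages, had lower values in V without passing the test. It was at 359 and 559 CPM in the macrophage-rich spots of the NV male and female and at 6.54 and 100.2 in those of the V male and female. The log2 fold change was -3.01 (SE 0.89, unadjusted p = 0.0109, adjusted p = 0.999, edgeR), and both V sections lay below both NV sections. The V male sum held 7 UMIs of Retnla and the V female sum 198. In the other spots it was at 189 and 356 in NV and 4.77 and 186 in V, so that macrophage-rich spots were above the other spots by 1.90 and 1.57-fold in NV and 1.37-fold in the V male, and below them (0.54-fold) in the V female. The difference of these contrasts between V and NV was -1.54 on the log2 scale (SE 0.31, unadjusted p = 0.000241, adjusted p = 1, edgeR). Within parenchyma spots the difference was -1.63 and was called (adjusted p = 3.06e-21, edgeR). That fit gave every gene the spread shared over all genes, so its p does not carry the spread of Retnla itself.

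No gene of the alternatively activated, inflammatory and protease lists passed the test. Both V sections lay below both NV sections for 4 of 5 tested genes of the first list, 3 of 5 of the second and 2 of 5 of the third, beside 16.3% of all genes, and above them for 0, 1 and 0, beside 16.4%. The summed level of the 15 inflammatory genes overlapped, at 481 and 632 CPM in NV and 566 and 444 in V, and so did Ccl6, the most abundant of those tested, at 349 and 500.5 against 493 and 372. Mgl2, a lectin of these macrophages, was at 31.4 and 60.3 CPM in NV and 14.9 and 28.8 in V. Ccl9, a chemokine, was at 53.4 and 74.5 against 26.1 and 19.7, a log2 fold change of -1.49 (SE 0.29, unadjusted p = 0.00114, edgeR). Ptgs2, the inducible cyclooxygenase, was at 26.7 and 14.2 against 2.80 and 4.55, and Il1b at 24.4 and 16.0 against 9.34 and 5.57. Il1rn went the other way, at 12.8 and 14.2 against 20.5 and 16.2, with a log2 fold change of 0.42 (SE 0.38). Mmp19 and Timp1, a matrix protease and an inhibitor of such proteases, both had V below NV, at log2 fold changes of -0.96 and -1.44. Mmp12 went the other way, with both V sections above both NV sections, but was too scarce to be tested here and is not in these counts.

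**Figure D5:**
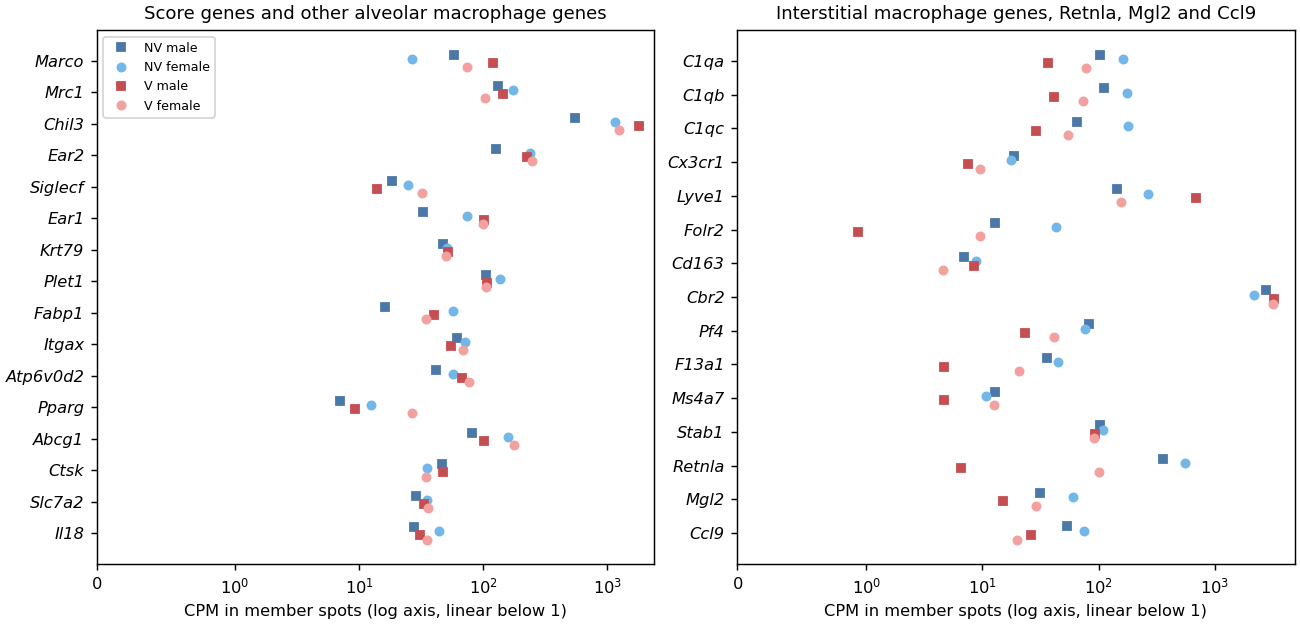
Levels (CPM, log axis that is linear below 1) in macrophage-rich (member) spots of each section, for the score genes and 12 other alveolar macrophage genes and for interstitial macrophage genes with Retnla, Mgl2 and Ccl9. Of the alveolar macrophage genes, Marco, Chil3, Ear1 and Atp6v0d2 have both V (red) points above both NV (blue) points and the others overlap, whereas for C1qa, Pf4 and Retnla both V points lie below both NV points, Retnla at 6.54 and 100.2 against 359 and 559.

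Across all 10187 genes tested in macrophage-rich spots, none was called different between V and NV by edgeR (0%), with 412 at an unadjusted p under 0.05 and a lowest adjusted p of 0.195. The DESeq2 Wald test called 6, Cxcl13, Ighm, Nr4a1, Iglc2, Hspa1b and Hspa1a, all lower in V. Leaving out the V male gave 89 called genes and leaving out the V female gave 396, with the lone V section then assumed to vary like the NV group. Hspa1a, an inducible heat shock protein whose reads can be shared with its paralog Hspa1b, was at 101 and 97.6 CPM in NV and 7.47 and 14.2 in V, a log2 fold change of -3.10 (SE 0.32, adjusted p = 0.195, edgeR). Nr4a1, an immediate early gene, was at 235 and 92.3 against 26.1 and 27.8. Iglc2, an immunoglobulin light chain, was at 120 and 209 against 20.5 and 33.9, and Ccl8, a chemokine of tissue macrophages, at 36.0 and 42.6 against 1.87 and 7.59. In the opposite direction, Ager, the receptor RAGE of alveolar type I cells, was at 1609 and 1725 in NV and 3003 and 2619.8 in V, a log2 fold change of 0.75 (SE 0.17, unadjusted p = 0.00270, edgeR). Fxyd3 was at 10.5 and 14.2 against 36.4 and 34.4, and Hbb-bs, a haemoglobin chain of red blood cells with the close paralog Hbb-bt, at 6353 and 6634 against 9539 and 9981. Plpp6, a lipid phosphatase, was at 8.13 and 8.87 against 25.2 and 24.8, and Gpr182, an endothelial receptor, at 38.3 and 40.8 against 74.7 and 70.3. The levels of Hspa1a and Nr4a1 over all spots were 76.5 and 97.2 against 7.48 and 19.4, and 232 and 87.1 against 22.4 and 25.2, close to those in the macrophage-rich spots.

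The contrast of macrophage-rich with other spots was compared between V and NV as an interaction. None of 13641 genes was called by edgeR (0%), with 325 at an unadjusted p under 0.05, and DESeq2 called none. The alveolar macrophage genes had a median difference of -0.31, beside -0.01 over all genes, with 9 of 12 negative, and for 4 of the 12 both V contrasts lay below both NV contrasts, beside 15.1% of all genes. The folds of their summed level overlapped, at 2.68 and 3.78 in NV and 2.88 and 2.72 in V. Plet1 had the lowest p of these, at 3.44-fold and 5.99-fold in the NV sections and 3.28-fold and 2.74-fold in the V sections (difference -0.57, SE 0.25, unadjusted p = 0.0437, edgeR). Besides Retnla, the genes with the lowest p-values and no overlap included Calml4 (-2.25), Sdhaf3 (-2.12) and Gk (-1.30) on the lower side. On the higher side they included Aste1, Plpp6 (1.35), Cdt1 (1.54) and 2610044O15Rik8 (1.96). None of these was a macrophage gene of the lists. Alox15, the lipoxygenase of resident macrophages and eosinophils, had 6, 1, 0 and 0 UMIs in the 4 macrophage-rich sums. Within parenchyma spots 11 genes were called, among them heart muscle genes (Ttn, Actc1, Myl7, Myl4) and immunoglobulin genes (Jchain, Igkc, Igha), with Retnla the only one from the macrophage lists. As said for Retnla, that fit gave every gene the spread shared over all genes. The p-values behind these calls therefore do not carry the spread of each gene itself.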

How the data were processed

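Gene expression was measured with Visium spatial transcriptomics in 4 lung sections. The authors aligned the reads with Space Ranger to the mm10 mouse reference and deposited raw UMI counts for each of 32285 genes and each spot over tissue, without normalization. Seurat 4.0.3 is also named in the submitters' processing notes, and its normalized values were not used here. Spots were scored and ranked as the report describes, and UMI counts were summed per section over the macrophage-rich spots and over the other spots with at least 2000 UMIs, since spots of a section are not replicates. Levels are CPM, computed from the summed counts. Gene positions came from GENCODE vM21 and promoter windows from RefSeq (GRCm38.p6).

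Sums were tested with the quasi-likelihood test of edgeR 4.0.16 (R 4.3.3, TMM scaling, filterByExpr), with Benjamini-Hochberg adjustment over all genes tested, and calls asked for an adjusted p below 0.05 and a change of more than 0.25 on the log2 scale. The fit of macrophage-rich against other spots had the section as a block. The score genes were left out of every fit on spots they had chosen, and each was tested on spots ranked by the other 3. DESeq2 1.42.0 was an alternative. The fits were tested on simulated counts, whose spread was set below that of the comparison of V with NV over all spots. The spot rule and the 30 gene lists (258 genes) were chosen with earlier results of these data known, and 1 interstitial macrophage gene is not reported here. Genes named beyond the lists were the 10 highest and 5 lowest called genes with the same direction in all 4 sections and at least 20 CPM where higher, and, between V and NV, the 5 in each direction with the lowest p and no overlap. Replicates 1 and 2 are the male and the female of each group, which are different mice. No doublet caller was run, as a spot is not a cell. Barcodes with under 2000 UMIs were left out.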

Additional observations from a re-analysis of the deposited data

Results flagged for a closer look

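The sum of 8 genes of alternatively activated macrophages, Retnla among them, had opposite signs in the groups. Their summed level in macrophage-rich spots divided by that in the other spots was 1.612 and 1.476 in the NV male and female, and 0.8563 and 0.7567 in their V counterparts. This difference between the groups was not tested for the sum. For the single genes, none of 7 tested was called in the comparison of the contrasts (edgeR), with 5 differences negative and 2 positive. Both V contrasts lay below both NV contrasts for 3, beside 15.1% of all genes, and above them for 1, beside 13%. Retnla, which made up most of the sum in NV, had the lowest p. In the V male Retnla was a small part of the sum and was higher in macrophage-rich spots.

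Spots with fewer than 2000 UMIs took no part in any comparison, and they also held UMIs of the score genes. These were 61, 37, 76 and 127 spots in the NV male, NV female, V male and V female. Their summed level of Marco, Mrc1, Chil3 and Ear2 was 231.9, 467.7, 652.3 and 682.4 CPM, beside 238, 347, 604 and 458 over the spots that were used. The 12 other alveolar macrophage genes were at 232, 409, 343 and 406 CPM in these shallow spots, beside 222, 246, 269 and 315. The V values of both sums rested on 40 to 106 UMIs and the NV values on 14 to 16.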

How the results depend on the processing

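The 172 genes higher in macrophage-rich spots became 102 with Chil3 left out of the score and 8 with no replicate block (the section left out of the fit), and 64 to 296 with 1 section left out. The 616 lower genes became 297 by the DESeq2 Wald test, 1075 with no filter on low counts, 37 within parenchyma spots, 122 with Chil3 left out of the score and 0 with no replicate block, and 134 to 1003 with 1 section left out. In macrophage-rich spots, the 0 genes called between V and NV became 6 by DESeq2, 130 with no filter, and 0 to 396 with 1 section left out. For the difference of the contrasts, 0 became 1 with no filter, 11 within parenchyma spots and 0 to 10 with 1 section left out. Over all spots, 0 became 32 by DESeq2 and 0 to 1172 with 1 section left out. A replicate block on the replicate number, which shares only a number and the sex between groups, called 0 genes in macrophage-rich spots and over all spots. With Marco left out of the score, its log2 fold change was 0.98 to 1.62 with 1 section left out. The direction turned for Folr2 (0.83 with Chil3 left out of the score), Lpl (0.11) and Acp5 (0.21) within parenchyma spots, and Sdhaf3 (0.0241, contrast difference with Chil3 left out). Among the values of named genes under the alternatives, 1180 kept direction and call, 119 lost the call, 48 gained it and 4 turned. The causes were not tested.

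With 2 sections a group, of different sex and tissue coverage, group, sex and region cannot be told apart in single sections, and leaving out a V section leaves 1 assumed to vary like the others. The score rests on medians of 7 to 16 UMIs per spot, which limits how well any single spot is placed.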

Other observations

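In the macrophage-rich spots, genes of alveolar type I cells and red blood cells had higher values in V and genes of lymphoid cells lower values, none of them called by edgeR. Of 8 type I cell genes, 7 had both V sections above both NV sections, beside 16.4% of all genes, with a median log2 fold change of V over NV of 0.62. Hopx, a marker of these cells, was at 835 and 882 CPM in the NV male and female and at 1514 and 1131 in the V male and female. Of 5 red blood cell genes, 4 did the same, with a median of 0.58, among them Alas2, an enzyme of haem synthesis, at 29.0 and 21.3 against 45.7 and 47.6. Of 11 lymphoid genes, 7 had both V sections below both NV sections, beside 16.3%, with a median of -1.11. Ms4a1, which encodes the B cell antigen CD20, was at 61.6 and 60.3 against 18.7 and 28.8, and Ighm, the IgM heavy chain, at 518 and 611 against 88.7 and 223. Over all spots with at least 2000 UMIs the medians of the 3 lists were 0.57, 0.49 and -0.80. Both V sections lay above both NV sections there for 2 of 8 type I and 3 of 5 red blood cell genes. They lay below for 8 of 11 lymphoid genes, and none did the opposite. The directions were thus not particular to macrophage-rich spots.

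Of 6 tested interferon-induced genes, 3 had both V sections above both NV sections, beside 16.4% of all genes, and Ifit3 was at 25.6 and 40.8 CPM in NV and 57.9 and 61.7 in V. Of 5 tested monocyte genes, 4 had both V sections below both NV sections, beside 16.3%, and Ccr2, the receptor that draws monocytes into tissue, was at 54.6 and 30.2 against 21.5 and 19.2. Of 7 class II antigen presentation genes, 4 did the same, Cd74 at 2104 and 2151 against 1175 and 1929. Over all spots with at least 2000 UMIs, 2 of 7 interferon-induced genes had both V sections above both NV sections, beside 12.4% of all genes. There 2 of 8 monocyte genes and 4 of 7 class II genes had both V sections below, beside 14.5%, and 1 monocyte gene had both above. None of these genes was called by edgeR.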
